A study of Homo sapiens with 15 samples.

Results

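GREB1, TFF1, TFF3, CA12 and IGFBP4 are genes that estrogen is known to induce in breast cancer cells, and they were followed here through every library of an RNA sequencing study of estrogen receptor β (ERβ, encoded by ESR2). The 5 genes were taken by symbol from a table of 60664 genes. Which measured values they were chosen by is not recorded. They were treated as chosen by their levels in knockout, add-back and control libraries, for which earlier results of these data were known. A test is therefore given only for LY500307 against vehicle, which compares none of those libraries. Those libraries still entered the filter and the estimate of the spread, because 1 model was fitted to all 15 libraries. A fit to the 6 libraries of that comparison alone gave the same 5 calls. In those libraries TFF1 held 64 to 73 expected counts with LY500307 and 5 to 12 with vehicle. It therefore passed the filter there through the LY500307 libraries, where it was high. If ligand values were also used in the choice, the p-values of that comparison are not independent of it. All 5 were among the 19516 genes that passed the filter on low counts. The cells were KPL4, a human breast adenocarcinoma line with amplified HER2, in 5 groups of 3 libraries. LY500307 cells were ERβ knockout KPL4 cells with exogenous ERβ that spent 72 h in a depleted medium, without phenol red and with serum at 1% stripped by dextran-coated charcoal, before 200 nM of the ERβ agonist LY500307 was added for 24 h. Vehicle cells were the same knockout cells with exogenous ERβ, kept in the same depleted medium and given DMSO for 24 h. Add-back cells were ERβ knockout cells with exogenous ERβ and no further treatment. Knockout cells are labelled as ERβ knockout without exogenous receptor, and control cells as having their endogenous ERβ. The labels place cells given neither ligand nor vehicle in a maintenance medium with full serum at 7%, insulin and hydrocortisone. Vehicle and add-back cells therefore differ in medium, serum and DMSO together. The labels name neither the number of knockout clones nor the promoter that drives exogenous ERβ, and they do not state whether the 3 libraries of a group came from separate cultures, so p-values measure the spread between libraries.

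Estrogen receptors are ligand-activated transcription factors that bind estrogen response elements, an inverted pair of GGTCA half-sites spaced by any 3 bases, directly or through other factors. In luminal breast cancer the α receptor, encoded by ESR1, is the usual driver of these genes, and ERβ can bind many of the same elements. GREB1 encodes a cofactor that joins the receptor on chromatin, TFF1 and TFF3 encode small secreted trefoil peptides, CA12 encodes a carbonic anhydrase of the cell surface, and IGFBP4 encodes a secreted protein that binds insulin-like growth factors.

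RefSeq promoter windows (GRCh38.p14) were at hand for CA12 and IGFBP4, 2 of the 5 genes, and GREB1, TFF1 and TFF3 are named only. The 250 bases before each RefSeq start are printed because both genes were higher with the ligand, as described below. Capitals mark matches to the estrogen response element half-site GGTCA, the TATA box TATAAA and the GC box GGGCGG, each searched on both strands.
CA12: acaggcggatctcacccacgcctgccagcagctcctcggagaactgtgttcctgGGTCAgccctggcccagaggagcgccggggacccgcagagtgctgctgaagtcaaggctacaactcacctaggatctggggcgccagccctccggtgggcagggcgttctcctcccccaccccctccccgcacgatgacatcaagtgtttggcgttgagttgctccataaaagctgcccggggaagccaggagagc
IGFBP4: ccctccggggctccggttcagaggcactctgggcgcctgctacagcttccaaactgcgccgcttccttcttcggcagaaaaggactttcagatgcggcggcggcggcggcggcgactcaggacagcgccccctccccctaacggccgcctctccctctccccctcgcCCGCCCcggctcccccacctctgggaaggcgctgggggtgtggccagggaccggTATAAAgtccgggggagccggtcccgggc

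The CA12 window (chr15:63381847-63382096, minus strand, 64.8% GC) held 1 half-site, 196 to 192 bases before the start, and no TATA or GC box. It lies inside the GENCODE 29 span of the gene, downstream of the start of transcript CA12-201 at 63382161 and upstream of that of CA12-202 at 63381835. The IGFBP4 window (chr17:40443200-40443449, plus strand, 71.6% GC) held no half-site, 1 TATA box 29 to 24 bases before the start and 1 GC box, on the opposite strand, 83 to 78 bases before it. Neither window held a full element, GGTCANNNTGACC. Of 35116 promoter windows of this length, 32.6% held a half-site, 0.0399% a full element, 10.7% a TATA box and 42.6% a GC box. The half-site is part of the full element, so those counts overlap, and the absence of a match says only that these letters are not in this window.

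Total depth per library was 12614074 to 19390378 expected counts. Luminal epithelial markers fitted the label: 8 of 8 reached 1 CPM (counts scaled to library size, with TMM factors) in every group, with summed levels of 10573 to 11048 CPM in LY500307, 10038 to 10758 in vehicle, 9540 to 9802 in add-back, 8749 to 9165 in knockout and 7196 to 7451 CPM in control libraries. Of the fibroblast markers 1 of 6 reached 1 CPM. The summed endothelial markers, mostly KDR, were 43.9 to 45.5 CPM with LY500307, 51.9 to 53.2 with vehicle, 16.3 to 18.8 in add-back, 10.5 to 11.5 in knockout and 10.6 to 13.5 CPM in control libraries. The summed immune markers, mostly CD68, were 6.15 to 8.32 CPM with LY500307, 6.54 to 7.08 with vehicle, 0.963 to 1.26 in add-back, 2.54 to 2.84 in knockout and 0.464 to 1.11 CPM in control libraries. Both sums moved between groups, and their part in the results was not tested. ESR2 itself was at 43.9 ± 1.38 CPM with LY500307, 45.2 ± 3.23 with vehicle, 32.8 ± 1.94 in add-back, 4.42 ± 1.36 in knockout and 5.76 ± 0.863 CPM in control cells (SD, n = 3 each). The ESR2 mRNA therefore did not separate knockout from control cells (log2 fold change -0.38 ± 0.17, adjusted p = 0.0796, edgeR), which leaves the knockout label unchecked by this gene, while exogenous ERβ was visible in the other 3 groups.

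GREB1 (ENSG00000196208, GRCh38 chromosome 2, 11482341 to 11642788, plus strand) was lowest in control cells and highest with the ligand. Its level was 21.8, 21.3 and 22.7 CPM in the 3 LY500307 libraries and 3.33, 3.63 and 4.09 CPM in the vehicle libraries. Add-back libraries had 13.8, 14.9 and 10.3 CPM, knockout libraries 4.35, 4.34 and 3.12 CPM, and control libraries 1.14, 1.79 and 1.01 CPM. LY500307 was highest and control lowest without overlap, and knockout and vehicle libraries overlapped with means of 3.94 and 3.68 CPM. The highest group mean was 16.7 times the lowest. Control libraries held 15 to 25 expected counts of this gene, so its level there is the least precise.

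TFF1 (ENSG00000160182, chromosome 21, 42362282 to 42366594, minus strand), the classical secreted marker of estrogen action known as pS2, had the same order at the top but much lower counts. Its level was 4.13, 4.23 and 3.76 CPM with LY500307 and 0.718, 0.641 and 0.341 CPM with vehicle. Add-back libraries had 2.20, 2.04 and 2.68 CPM, knockout libraries 0.285, 0.0761 and 0.429 CPM, and control libraries 0.303, 0.143 and 0.253 CPM. LY500307 and add-back libraries stood above all others, and the other groups were not cleanly separated: vehicle overlapped knockout, and knockout overlapped control. The summed expected counts were 207 with LY500307, 28 with vehicle, 113 in add-back, 12 in knockout and 10 in control cells.

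TFF3 (ENSG00000160180, chromosome 21, 42311667 to 42315651, minus strand), the intestinal-type trefoil factor, had a different order. Its level was 5.15, 4.59 and 4.70 CPM with LY500307 and 2.68, 2.40 and 2.93 CPM with vehicle. Add-back libraries had 0.776, 0.663 and 0.447 CPM, knockout libraries 1.07, 1.14 and 0.919 CPM, and control libraries 0.227, 0.143 and 0.126 CPM. No neighbouring groups in this order overlapped, and add-back cells lay below knockout cells, unlike for the other 4 genes. The summed expected counts were 247 with LY500307, 129 with vehicle, 31 in add-back, 45 in knockout and 7 in control cells, so the 29.1-fold span between the highest and lowest mean rests on few control reads. TFF2, the trefoil gene between these 2, had 1 expected count in all 15 libraries, in an add-back library.

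CA12 (ENSG00000074410, chromosome 15, 63321378 to 63382161, minus strand), which hydrates carbon dioxide outside the cell, was the most abundant member. Its level was 118, 131 and 127 CPM with LY500307 and 44.4, 44.3 and 44.9 CPM with vehicle. Add-back libraries had 114, 124 and 122 CPM, knockout libraries 94.4, 91.8 and 89.9 CPM, and control libraries 27.3, 25.4 and 31.4 CPM. LY500307 and add-back libraries overlapped at the top, and below them came knockout, vehicle and control libraries with no overlap. Even the control libraries held 356 to 497 expected counts.

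IGFBP4 (ENSG00000141753, chromosome 17, 40443461 to 40457731, plus strand) fell into a high and a low level. LY500307 libraries had 22.1, 20.4 and 22.3 CPM and vehicle libraries 7.32, 8.76 and 8.72 CPM. Add-back libraries had 19.8, 22.8 and 18.9 CPM, knockout libraries 9.90, 11.7 and 10.5 CPM, and control libraries 9.70, 8.43 and 10.4 CPM. LY500307 and add-back libraries overlapped and stood above all others, while vehicle overlapped control and control overlapped knockout. The ratio of the highest to the lowest group mean was 2.61, the smallest of the 5 genes.

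**Figure D1:**
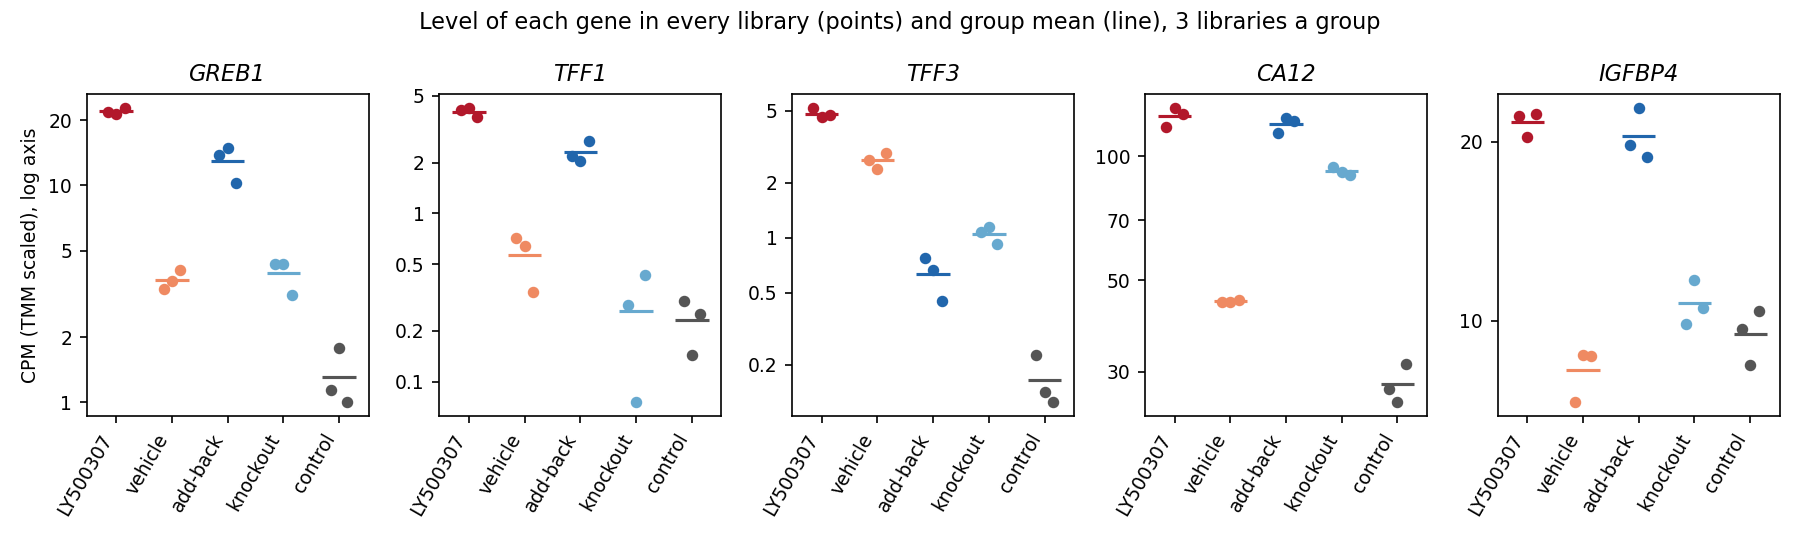
CPM with TMM scaling on a log axis for GREB1, TFF1, TFF3, CA12 and IGFBP4, with each of the 3 libraries of a group as a point and the group mean as a line. The LY500307 mean is the highest for all 5 genes, and for TFF3 the add-back mean of 0.629 CPM lies below the knockout mean of 1.04 CPM.

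Per length, CA12 also had the highest level of the 5 genes in every group, with 66.4 ± 3.96 TPM under LY500307, 23.6 ± 0.0887 under vehicle, 66.0 ± 2.73 in add-back, 51.5 ± 1.65 in knockout and 14.9 ± 1.85 TPM in control cells (SD, n = 3 each). Under LY500307 the other 4 genes lay close together, with 11.6 ± 0.50 TPM for IGFBP4, 9.54 ± 0.55 for TFF3, 8.67 ± 0.573 for TFF1 and 8.05 ± 0.224 TPM for GREB1. In control cells they spread further, with 5.12 ± 0.584 TPM for IGFBP4, 0.499 ± 0.169 for TFF1, 0.482 ± 0.155 for GREB1 and 0.326 ± 0.098 TPM for TFF3. These TPM values used the mean length of the annotated transcripts, 3223 bases for GREB1 and 2232 for CA12. Under LY500307 60.2% of the GREB1 counts were assigned to forms of 8444 and 8484 bases. Of the CA12 counts 61.3% were assigned to CA12-201, of 6413 bases. Longer lengths would lower the values of both genes, so the closeness and order of the genes depend on the length used.

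LY500307 against vehicle asked what the agonist changed in cells with exogenous ERβ. No cells without exogenous ERβ were given the ligand, and ESR1 mRNA was also present, so the receptor through which the ligand acted was not tested. All 5 genes rose with the ligand, and in none did a LY500307 library overlap a vehicle library. The share of all genes without such overlap was not counted, and ESR1, not called in this comparison, had no overlap either. In the same comparison 7.12% of the 19516 genes tested were called at an adjusted p under 0.05, 4.77% higher and 2.35% lower (edgeR quasi-likelihood test, Benjamini-Hochberg over all genes tested). The median log2 fold change was 1.49 over the 5 genes and -0.02 over all genes. That background moves with the libraries: 1389 genes were called in all, 586 without LY500307 replicate 1, 487 without LY500307 replicate 2, 403 without vehicle replicate 1, 299 without vehicle replicate 2, and 294 with offsets for GC content and transcript length. In bulk RNA, a gene used by more cells and more RNA per cell cannot be told apart.

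TFF1 averaged 4.04 ± 0.249 CPM with LY500307 and 0.567 ± 0.20 CPM with vehicle (SD, n = 3 each). Its log2 fold change was 2.80 ± 0.27 (SE), the highest of the 5 and the 16th highest of 19516 genes, with an adjusted p of 4.65e-06. GREB1 averaged 21.9 ± 0.71 CPM with LY500307 and 3.68 ± 0.381 CPM with vehicle, a log2 fold change of 2.57 ± 0.14 and an adjusted p of 2.97e-09. It was next in that order, at 17. The receptor cofactor and the trefoil marker rose by factors of 5.96 and 6.96, and the difference between these factors was not tested.

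CA12 averaged 125 ± 6.84 CPM with LY500307 and 44.5 ± 0.331 CPM with vehicle, a log2 fold change of 1.49 ± 0.06 and an adjusted p of 8.36e-12. It had the smallest adjusted p of the 5 genes and ranked 63 by fold change. IGFBP4 averaged 21.6 ± 1.06 CPM with LY500307 and 8.26 ± 0.822 CPM with vehicle, a log2 fold change of 1.38 ± 0.10 and an adjusted p of 1.1e-07, at rank 77. TFF3 averaged 4.81 ± 0.297 CPM with LY500307 and 2.67 ± 0.263 CPM with vehicle. Its log2 fold change of 0.85 ± 0.16 was the smallest of the 5, with an adjusted p of 0.00498 and rank 252. Neither receptor mRNA passed the test in this comparison: ESR2 had a log2 fold change of -0.04 ± 0.08 (adjusted p = 0.815) and ESR1, at 10.4 ± 0.191 CPM with LY500307 and 10.7 ± 0.143 CPM with vehicle, of -0.05 ± 0.09 (adjusted p = 0.825).

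Vehicle against add-back set cells in depleted medium with DMSO beside untreated cells of the same genotype. The add-back libraries are among those treated as used in the choice, so the members' values are a description without a test. GREB1, TFF1, CA12 and IGFBP4 were lower and TFF3 higher with vehicle, each without overlap between libraries. The share of all genes without overlap was not counted. Of all genes tested 48.1% were called, 26.4% higher and 21.6% lower. GREB1 averaged 3.68 ± 0.381 CPM with vehicle and 13.0 ± 2.39 CPM in add-back cells, a log2 fold change of -1.82 ± 0.15. TFF1 had a log2 fold change of -1.99 ± 0.29, CA12 of -1.43 ± 0.06 and IGFBP4 of -1.31 ± 0.10. TFF3 went the other way, with 2.67 ± 0.263 CPM with vehicle and 0.629 ± 0.167 CPM in add-back cells, a log2 fold change of 2.06 ± 0.22. With GC content and length offsets the IGFBP4 value was -0.83. ESR1 had 10.7 CPM with vehicle, against 17.1 CPM in untreated add-back cells (log2 fold change -0.68 ± 0.08, adjusted p = 1.29e-06, edgeR), and ESR2 had 45.2 CPM with vehicle, against 32.8 CPM in untreated add-back cells (0.46 ± 0.08, adjusted p = 0.000117). Their part in the members' values was not tested, and medium, serum and DMSO cannot be told apart here.

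LY500307 against add-back compared ligand in depleted medium with untreated cells, and 40.2% of all genes were called, 22.4% higher and 17.8% lower. It shares its libraries with both comparisons above and uses the add-back libraries, so the values are given side by side without a test. The log2 fold change was 0.75 ± 0.12 for GREB1 and 0.81 ± 0.21 for TFF1, without overlap between libraries. How many of all genes lacked overlap was not counted in this comparison either. It was 2.92 ± 0.21 for TFF3, with 4.81 CPM with LY500307 and 0.629 CPM in add-back cells. For CA12 the log2 fold change was 0.06 ± 0.05, with overlapping libraries, at 125 CPM with LY500307 and 120 CPM in add-back cells. For IGFBP4 it was 0.07 ± 0.08, also with overlap, at 21.6 CPM with LY500307 and 20.5 CPM in add-back cells. With GC content and length offsets the CA12 value was -0.03 and the IGFBP4 value 0.34.

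**Figure D2:**
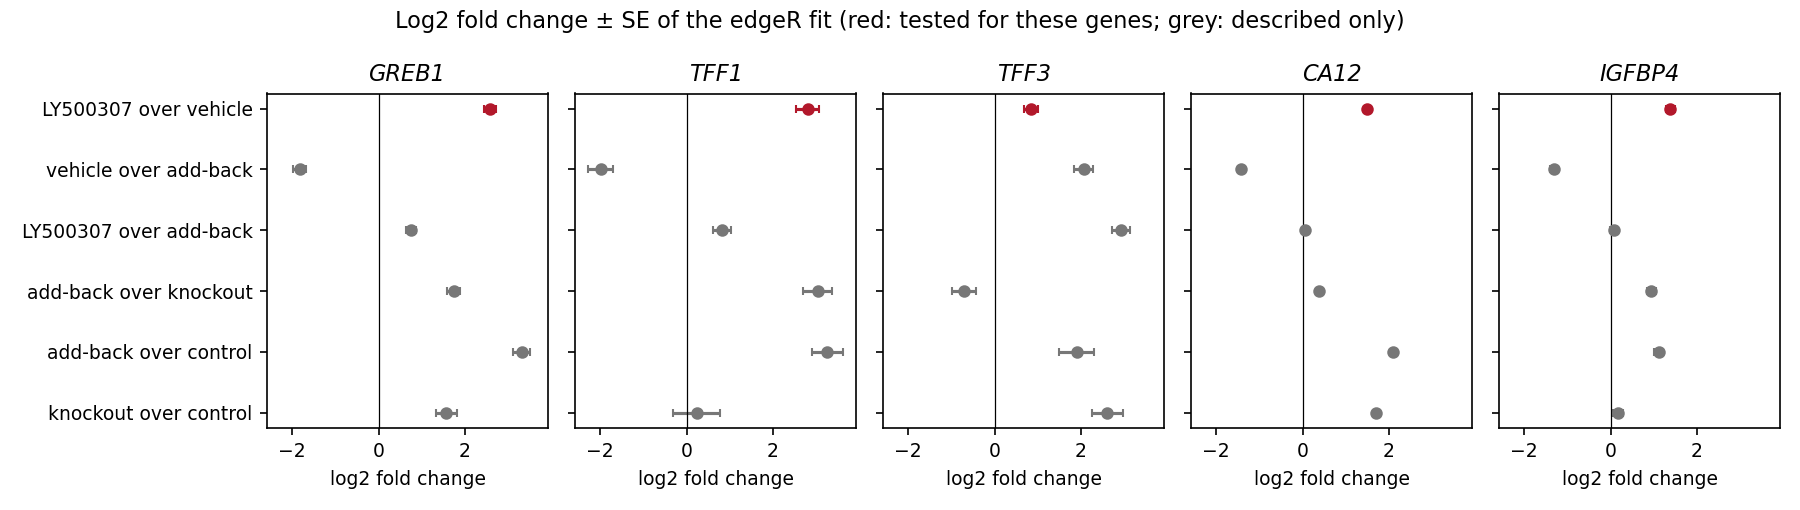
Log2 fold change of each gene in 6 comparisons, as points with the SE of the edgeR fit. Red points are LY500307 over vehicle, in which the genes were tested, and grey points are described only. TFF3 differs in sign from the other 4 genes in vehicle over add-back (2.06) and in add-back over knockout (-0.71).

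The comparisons among add-back, knockout and control libraries, treated as those the 5 genes were selected on, are likewise a description without a test. Add-back over knockout gave log2 fold changes of 1.74 ± 0.15 for GREB1, 3.03 ± 0.34 for TFF1, 0.94 ± 0.10 for IGFBP4, 0.39 ± 0.05 for CA12 and -0.71 ± 0.27 for TFF3. In that comparison 19.6% of all genes were called, 10.4% higher and 9.19% lower. ESR1 libraries overlapped, at 17.1 ± 1.83 in add-back and 17.4 ± 0.243 CPM in knockout cells (adjusted p = 0.89, edgeR).

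Add-back over control gave 3.31 ± 0.19 for GREB1, 3.26 ± 0.36 for TFF1, 2.09 ± 0.06 for CA12, 1.90 ± 0.40 for TFF3 and 1.11 ± 0.10 for IGFBP4 on the log2 scale, beside 45.8% of all genes called, 23.2% higher and 22.7% lower. Knockout over control gave 2.61 ± 0.36 for TFF3, 1.71 ± 0.06 for CA12, 1.57 ± 0.24 for GREB1, 0.23 ± 0.55 for TFF1 and 0.17 ± 0.11 for IGFBP4, beside 46% of all genes called, 23.4% higher and 22.6% lower. The knockout and control libraries of TFF1 and of IGFBP4 overlapped, and those of the other 3 genes did not. How many of all genes lacked overlap was not counted here. With GC content and length offsets the IGFBP4 value was -0.34 in this comparison and 0.62 in add-back over control. ESR1 was at 17.4 CPM in knockout and 10.0 CPM in control cells (log2 fold change 0.80 ± 0.09, adjusted p = 2.96e-07). The filter on low counts passed TFF1 and TFF3 with the help of the groups where they were high. In the 6 libraries of knockout and control alone TFF1 did not pass it, and in those of add-back and control alone TFF3 did not.

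Other genes of the estrogen response were read from a list of 61 further estrogen-induced genes, of which 51 could be tested. The list was chosen with earlier results of these data known. Its shares and p-values, here and in the next paragraph, may therefore not be independent of that choice. The progesterone receptor gene PGR, a standard target, was among the 10 that could not, with 22 expected counts over the 15 libraries. With LY500307 against vehicle, 17 of the 51 rose, 1 fell and 33 did not pass the test, so 35.3% were called beside 7.12% of all genes. Their median log2 fold change was 0.19, against -0.02 for all genes. CISH, a feedback inhibitor of cytokine signalling, averaged 5.23 ± 0.85 CPM with LY500307 and 1.39 ± 0.141 CPM with vehicle (log2 fold change 1.90 ± 0.19, adjusted p = 8.03e-06, edgeR). SLC7A5, a transporter of large neutral amino acids, averaged 485 ± 13.1 CPM with LY500307 and 321 ± 26.2 CPM with vehicle (0.59 ± 0.05, adjusted p = 1.55e-06). The luminal keratin KRT19 averaged 336 ± 9.04 CPM with LY500307 and 258 ± 8.46 CPM with vehicle (0.38 ± 0.04, adjusted p = 1.97e-05). AGR2, a disulfide isomerase, was the single list gene called lower, at 711 ± 3.64 CPM with LY500307 and 773 ± 8.90 CPM with vehicle (-0.12 ± 0.04, adjusted p = 0.0493), and in 9 of 15 alternatives 0 genes of the list were called lower.

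Vehicle against add-back called 14 of the 51 higher and 27 lower, 80.4% beside 48.1% of all genes, with a median log2 fold change of -0.20 against 0.01. The lower ones included CCND1, the gene of cyclin D1, at 597 ± 15.3 CPM with vehicle, against 1098 ± 32.6 CPM in untreated add-back cells (-0.88 ± 0.03, adjusted p = 2.53e-14, edgeR). MYC, a growth-promoting transcription factor, averaged 57.9 ± 3.17 CPM with vehicle, against 98.6 ± 0.30 CPM in untreated add-back cells (-0.77 ± 0.04, adjusted p = 4.7e-11). AGR2 was higher with vehicle, like TFF3, at 773 ± 8.90 CPM against 298 ± 9.16 CPM in add-back cells (1.37 ± 0.04, adjusted p = 7.91e-16). SERPINA1, which encodes α1-antitrypsin, was also higher, at 26.5 ± 0.113 CPM with vehicle, against 7.84 ± 0.781 CPM in untreated add-back cells (1.76 ± 0.09, adjusted p = 1.71e-11). LY500307 against add-back called 22 higher and 20 lower, 82.4% beside 40.2% of all genes. Add-back against knockout called 16 higher and 9 lower, 49% beside 19.6%. Add-back against control called 24 higher and 10 lower, 66.7% beside 45.8%, and knockout against control 21 higher and 15 lower, 70.6% beside 46%.

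**Figure D3:**
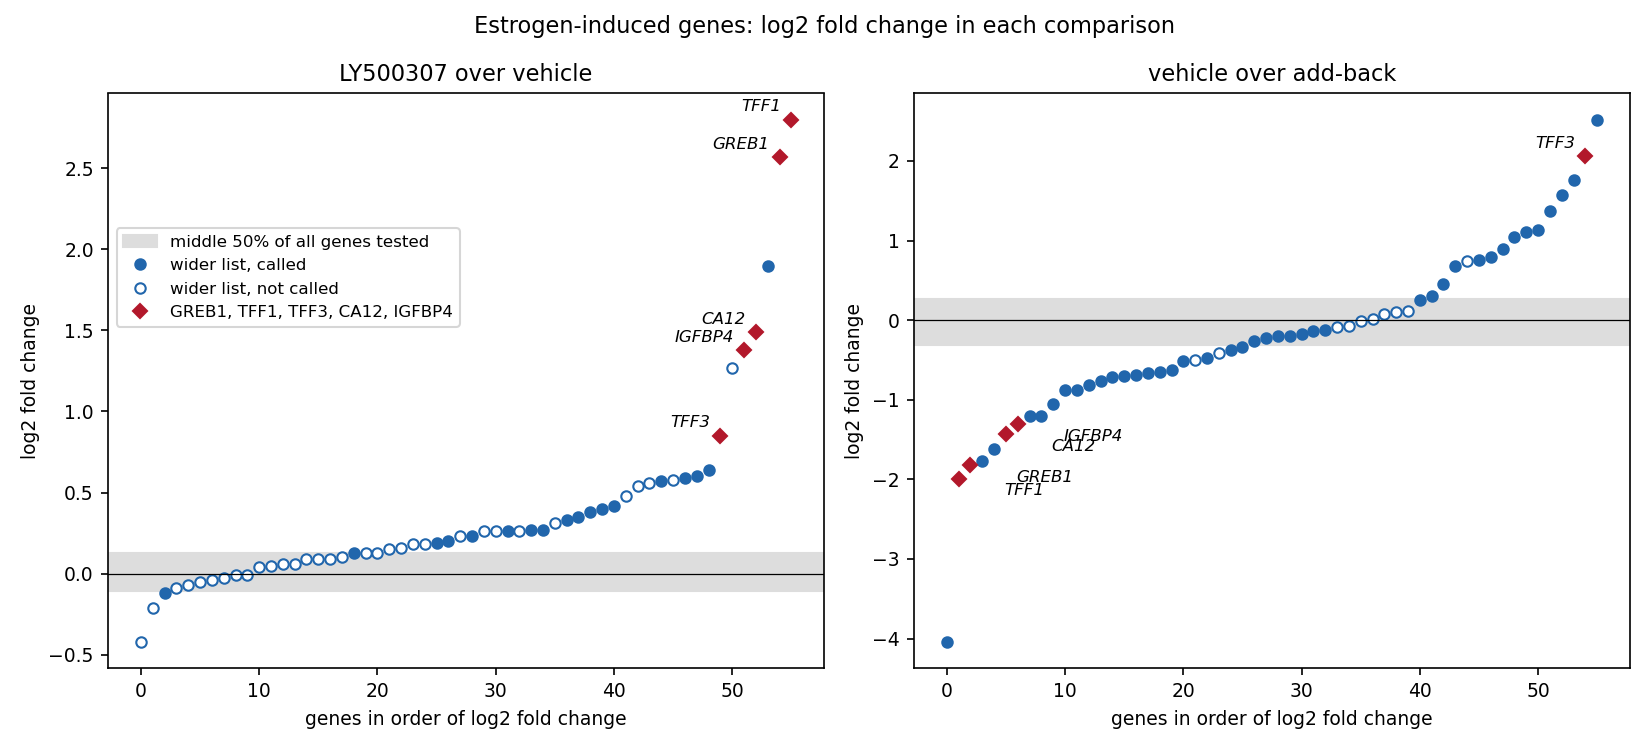
Log2 fold changes of the 51 tested genes of the wider list and of the 5 genes, in order of size, for LY500307 over vehicle and vehicle over add-back. Filled circles were called, open circles were not, diamonds are the 5 genes, and the grey band holds the middle 50% of all genes tested. In the left panel all 5 diamonds lie at 0.85 or above; in the right panel TFF3 lies at 2.06 and the other 4 at -1.31 or below.

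Relatives of the members had smaller log2 fold changes with the ligand, and the differences from the members were not tested. Of the other carbonic anhydrase genes CA2, CA5B, CA8, CA11, CA13 and CA14 could be tested and none was called in LY500307 against vehicle. As 7.12% of all genes were called there, so few genes with none called say little about the family. Their log2 fold changes ran from -0.22 ± 0.08 for CA5B to 0.36 ± 0.35 for CA14. CA2, a cytosolic enzyme, and CA8, a family member known to lack catalytic activity, were both higher with vehicle than in add-back cells, by 1.19 ± 0.14 (adjusted p = 1.02e-06, edgeR) and 1.55 ± 0.07 (adjusted p = 1.37e-12), where CA12 was lower. CA13 was also called higher there, CA11 was called lower, and CA5B and CA14 were not called, beside 48.1% of all genes called. Among the binding proteins of insulin-like growth factors, IGFBP5 was higher with LY500307 at 42.9 CPM, against 32.3 CPM with vehicle (0.41 ± 0.05, adjusted p = 3.42e-05). IGFBP3 was lower, at 130 CPM with LY500307 and 156 CPM with vehicle (-0.26 ± 0.06, adjusted p = 0.00764), while IGFBP2 and IGFBP7 did not pass the test. IGFBP5 had the larger change in vehicle against add-back, at 32.3 CPM with vehicle, against 248 CPM in untreated add-back cells (-2.94 ± 0.04, adjusted p = 1.06e-19). GREB1L, the paralog of GREB1, was higher at 23.7 CPM with LY500307, against 19.0 CPM with vehicle (0.32 ± 0.07, adjusted p = 0.0119).

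Genes beside the members were called about as often as all genes with the ligand. Of the 24 protein-coding genes nearest to the 5 loci that passed the filter, 1 was called higher and 1 lower in LY500307 against vehicle, 8.33% beside 7.12% of all genes, with a median log2 fold change of -0.04. The higher one was RARA, the gene of retinoic acid receptor α and itself on the wider list, 85.8 kb from IGFBP4, at 34.2 CPM with LY500307 and 22.7 CPM with vehicle (0.60 ± 0.10, adjusted p = 0.00276, edgeR). The lower one was LRATD1, 2990 kb from GREB1 (-0.32 ± 0.08, adjusted p = 0.0135). TMPRSS3, a membrane serine protease gene 5.24 kb from TFF1, was at 1.42 CPM with LY500307 and 1.09 CPM with vehicle (0.40 ± 0.24, adjusted p = 0.358). TFF1 and TFF3 lie 46.6 kb apart, and their log2 fold changes in vehicle over add-back had opposite signs, -1.99 and 2.06. In that comparison 14 of the 24 neighbours were called higher and 2 lower, 66.7% beside 48.1% of all genes. The lower ones were RARA (-1.20 ± 0.10, adjusted p = 7.88e-09) and the focal adhesion gene TNS4, 18.1 kb from IGFBP4 (-2.84 ± 0.16, adjusted p = 2.56e-11).

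**Figure D4:**
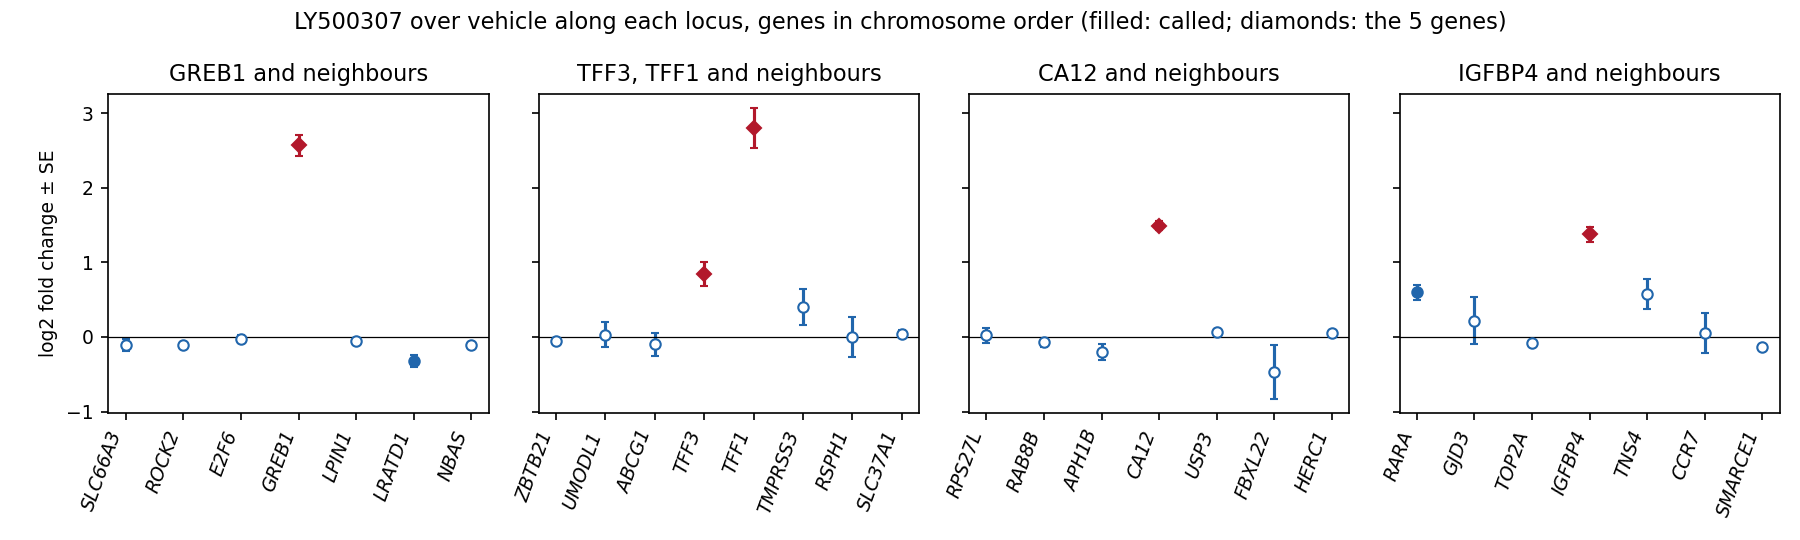
Log2 fold change of LY500307 over vehicle, with the SE of the edgeR fit, for the members (diamonds) and the nearest tested protein-coding genes on each side (circles) in chromosome order. Filled symbols were called. RARA (0.60) and LRATD1 (-0.32) are the called neighbours.

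Likeness of pattern was measured as the root mean square difference of log2 CPM, each gene centred on its mean over the 15 libraries, against 14012 protein-coding genes. It is a description over libraries that share cells and depth. GREB1 and TFF1 were each other's nearest gene, at a difference of 0.72, followed for both by C5AR2, a complement receptor gene, at 0.76 from GREB1 and 0.89 from TFF1. CA12 was nearest to A4GALT, a glycosyltransferase gene, at 0.26, then ISG15 at 0.33 and BBLN at 0.36. A4GALT averaged 4.94 CPM with LY500307, 2.06 with vehicle, 5.70 in add-back, 3.41 in knockout and 1.03 CPM in control cells. IGFBP4 was nearest to the mucin gene MUC5B at 0.31, then RNF223 and GADD45G, both at 0.33. TFF3 was nearest to VWA5B2 at 0.27, then SERPINA3, which encodes α1-antichymotrypsin, at 0.34, and VCAN, which encodes versican, at 0.35. None of the other 4 members was near TFF3 by this measure: the least distant was GREB1 at 1.20, rank 1303. Distance from other members by this measure was not particular to TFF3, but the measure is not scaled for the size of a gene's changes. From IGFBP4 the least distant member was CA12 at 0.51, rank 725, and GREB1 was at rank 13231. From CA12, IGFBP4 was at rank 63 and GREB1 at rank 2606. From GREB1, CA12 was at rank 4 and IGFBP4 at rank 17. The root mean square of centred log2 CPM was 0.58 for IGFBP4, 1.42 for GREB1 and 1.44 for TFF3. The difference of 0.96 between GREB1 and IGFBP4 therefore gave rank 17 from GREB1 but rank 13231 from IGFBP4. The rank from IGFBP4 does not show an opposite pattern. In vehicle over add-back and in add-back over knockout, IGFBP4 (-1.31 and 0.94) had the sign of GREB1 (-1.82 and 1.74), and TFF3 did not.

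Transcript values are RSEM's division of reads among annotated isoforms and are given as shares of a gene's expected counts, without a test. TFF1 and IGFBP4 each had a single transcript in the table. CA12 was split mainly between CA12-201 and CA12-202. CA12-201 held 61.3% of the gene's counts with LY500307, 58.3% with vehicle, 60% in add-back, 63.1% in knockout and 58.5% in control cells. CA12-202 held 32.3% with LY500307 (25.4 to 38.3% over libraries), 32.1% with vehicle (16.5 to 41.8%), 38.5% in add-back (34.8 to 41.6%), 36.1% in knockout (35.4 to 36.5%) and 36.7% in control cells (32.6 to 44.5%). The level of CA12-201 was 76.7 ± 1.85 CPM with LY500307 and 26.1 ± 1.55 CPM with vehicle.

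GREB1 was less even. Its long forms GREB1-201 and GREB1-204, of 32 and 33 exons, together held 60.2% of the counts with LY500307, with a range of 57.1 to 65.6% over libraries. With vehicle they held 24.4%, with a range of 0.103 to 40.5%. In add-back cells they held 49.2% (42.3 to 56.4%). Knockout libraries ran from 0 to 68.8% and control libraries from 0 to 58.8%, which is too wide to give a share. The vehicle range is wide as well, so its share is uncertain. GREB1-206, a form of 16 exons that starts inside the gene at 11612259, held 24.7% with LY500307 (23.0 to 26.9%) and 54.8% with vehicle (43.8 to 70.5%), without overlap. It held 31% in add-back (24.9 to 40.9%), 32.1% in knockout (12 to 60.7%) and 51.6% in control cells (35.6 to 68.8%). A high share of GREB1-206 was therefore not particular to vehicle, and control libraries also had few counts of the gene. The summed counts of the long forms were 677 with LY500307 and 43.7 with vehicle, and those of GREB1-206 were 278 with LY500307 and 98.1 with vehicle. The vehicle shares rest on 179 expected counts of the gene in 3 libraries, and the reads were shared between isoforms by estimation. TFF3-203 and TFF3-204 held near-equal shares with LY500307, 45.1% and 54.9%, and with vehicle, 47.1% and 52.9%. In add-back cells TFF3-203 held 70.3%, with a range of 36.0 to 100% over libraries, on 31 counts in all.

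**Figure D5:**
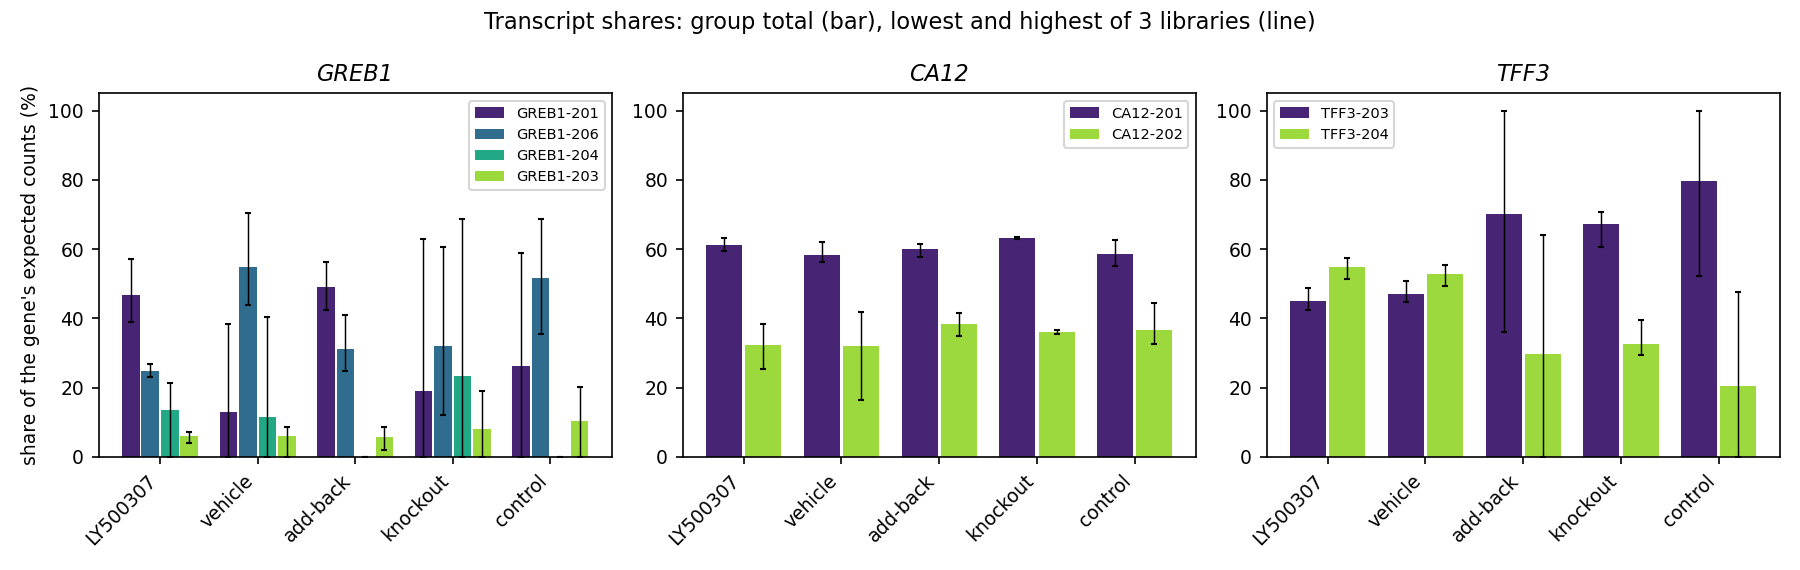
Share of a gene's expected counts held by each transcript at or above 5% of the gene over all libraries. Bars are the total of the 3 libraries of a group and lines run from the lowest to the highest library. CA12-201 holds 58.3 to 63.1% of its gene in every group. GREB1-206 holds 24.7% with LY500307, 54.8% with vehicle and 51.6% in control cells.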

How the data were processed

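Stranded total RNA libraries depleted of ribosomal RNA were sequenced, per the labels' protocols. The authors deposited RSEM expected counts for genes and for transcripts, without normalisation. RSEM, GSNAP, Trim Galore and FastQC were used with the GRCh38 build, per the submitters' processing notes. Versions, annotation release and strand setting are not given in the sources used here.

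Expected counts were rounded and filtered with filterByExpr by group. The 15 libraries were then fitted together, with TMM factors and 1 mean a group, and tested with the quasi-likelihood test of edgeR 4.0.16 in R 4.3.3, two-sided, with Benjamini-Hochberg adjustment over 19516 genes and a threshold of 0.05. The procedure was tested on simulated data, drawn independently for each library without effects of GC content or transcript length. That test does not bear on how the counts of called genes move with those offsets or with single libraries. The biological coefficient of variation was 4.99%. Positions and lengths came from GENCODE 29, which held 58396 of the 60664 identifiers. Counting error covers molecules only as far as reads are independent, since no molecular identifiers were used.

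Members and lists were chosen with earlier results of these data known. Named genes were the members, ESR2, ESR1, and genes taken from the relatives, the 3 tested protein-coding neighbours on each side and the 3 nearest genes by pattern. From the wider list, called genes were taken from the 3 with the smallest p in each direction of a comparison. Not all of these are named, and PGR was named as a standard target. Genes of the receptor and cofactor list were chosen after their values were seen. The values of 1 further gene are not reported here.

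Alternatives were RLE and upper-quartile factors, DESeq2 1.42.0, limma-voom (limma 3.58.1), other filters, the 6 libraries alone, a replicate block, GC content and length offsets, and leaving out each library.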

Additional observations from a re-analysis of the deposited data

How the results depend on the processing

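In LY500307 against vehicle the 5 genes kept their direction and their side of the threshold in all 73 alternative values. DESeq2 gave no adjusted p for TFF1 and TFF3 in LY500307 against vehicle, and these are not counted. In the comparisons without a test the offsets turned the sign of CA12 in LY500307 against add-back, at -0.03, and of IGFBP4 in knockout against control, at -0.34. The sign of TFF1 in knockout against control also varied, with values from -0.32 to 0.62 over the alternatives. TFF3 had the weakest call in LY500307 against vehicle, with log2 fold changes of 0.71 to 0.94 and adjusted p from 0.00117 to 0.0464. The count of genes called in LY500307 against vehicle, 1389, was 294 with the offsets and 299 to 1844 when each library was left out, and the cause was not tested. The other 5 counts stayed within 1.5 times under every alternative run, and 13 to 21 genes of the wider list were called higher. The share of calls that were higher moved under other scalings by over 10 points for add-back against knockout, to 42% with upper-quartile factors and 64.9% with the offsets, against 53.1%. For LY500307 against vehicle it was 67%, 83.1% with no filter, and 77.6 to 80.4% without LY500307 replicate 1, 2 or 3 or vehicle replicate 1 or 2. No pairing by replicate number was seen: residuals of same-numbered libraries correlated at -0.0952 to 0.0603 across genes, with 0 of 30 pairs over 0.1. Correlations of differently numbered libraries were not set beside these, so a weak pairing could go unseen. With the replicate block, 1216 genes were called in LY500307 against vehicle, and no member's call changed. Depth limits TFF1 and TFF3 most, at 10 and 7 expected counts in control cells.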

Other observations

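Receptors and cofactors of the estrogen response made up a further list, also chosen with earlier results of these data known. Of its 16 tested genes, 2 were called higher and 1 lower in LY500307 against vehicle, 18.8% beside 7.12% of all genes, and 6 were higher and 7 lower in vehicle against add-back, 81.2% beside 48.1%. ESRRA, the gene of an orphan receptor related to the estrogen receptors, was at 14.1 CPM with LY500307 and 10.8 CPM with vehicle (log2 fold change 0.39 ± 0.08, adjusted p = 0.00876, edgeR). NCOA2, a coactivator gene, was at 260 CPM with LY500307 and 282 CPM with vehicle (-0.12 ± 0.03, adjusted p = 0.0352). In vehicle against add-back the log2 fold change was -0.65 ± 0.08 for ESRRA (adjusted p = 2.04e-06) and -1.42 ± 0.26 for GPER1, the gene of a membrane estrogen receptor (adjusted p = 0.000142). The pioneer factor gene FOXA1 was at 297 CPM with vehicle, against 276 CPM in add-back cells (0.11 ± 0.04, adjusted p = 0.048), and GATA3 at 30 CPM with vehicle, against 39.7 CPM in add-back cells (-0.41 ± 0.06, adjusted p = 3.28e-05). Individual genes of this list were chosen after their values were seen.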
